A study of Canis lupus familiaris with 34 samples.

Results

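The activator protein 1 (AP-1) factors and early growth response (EGR) genes examined here are 10 immediate-early genes, taken by symbol from the 23768 counted features of the mitral valve transcriptome. They are the FOS family (FOS, FOSB, FOSL1, FOSL2), the JUN family (JUN, JUNB, JUND), ATF3, and the zinc finger factors EGR1 and EGR3. The canine RefSeq feature was used where a gene also had a feature lifted from human, which applied to FOSB. All 10 had enough counts to be tested, and all 10 are protein-coding genes in the RefSeq table of the UU_Cfam_GSD_1.0 (canFam4) assembly.

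AP-1 is a dimer of a JUN protein with a FOS, JUN or ATF protein that binds DNA through a basic leucine zipper. FOS proteins need a JUN partner to bind DNA, whereas JUN proteins can also pair with each other, and JUNB and JUND often act more weakly or in opposition to JUN. Transcription of most of these genes rises within minutes of growth factors, stretch or stress, through serum response factor and mitogen-activated protein kinases, and the short-lived mRNAs then decay. In connective tissue cells their targets include matrix metalloproteinases, cytokines and growth factors.

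PolyA RNA was sequenced from the mitral valve of each of 34 Cavalier King Charles Spaniels, and raw counts per feature were deposited. The 19 10y-noCHF dogs (10 females, 9 males) had no congestive heart failure (CHF), and the 15 10y-MMVD-CHF dogs (6 females, 9 males) had CHF caused by myxomatous mitral valve disease (MMVD), a degeneration of the valve leaflets. All were privately owned, elderly dogs that were sedated and euthanised before the valve was excised. Their age was similar between the groups, about 10 years (the 10y of the group names), with a spread of several years within each group. The 10y-noCHF group was not a healthy group, since nearly all of its dogs had MMVD at a stage before CHF, and a response to diuretics was among the criteria for CHF. Stage, age, RNA quality and the delay between euthanasia and preservation are not paired with single dogs in the sources used here, so their part in the results below was not tested. Since the tissue is bulk, fewer cells of a type and less RNA per cell cannot be told apart.

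Total counts per dog ranged from 46185256 to 82361245. Levels are in CPM, the count as a share of the library total after scaling between libraries, and differences are log2 fold changes of 10y-MMVD-CHF over 10y-noCHF with their standard error (SE), from edgeR's quasi-likelihood test with sex as a fixed effect. The false discovery rate (FDR) is the Benjamini-Hochberg value over all 19568 features tested, with 0.1 as the threshold. Across those features the median log2 fold change was 0.0076.

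Of the 10 genes, 1 was significantly changed between the groups, FOSB, which was lower in 10y-MMVD-CHF. The share of all features past the same threshold was 0.118%. At an unadjusted p below 0.05 there were 3 of 10 (FOSB, FOSL1 and ATF3), all with lower values in 10y-MMVD-CHF, against 6.31% of all features. The log2 fold change was below 0 for 8 of the 10 genes and for 47.4% of all features, and the median over the 10 was -0.16. With DESeq2 in place of edgeR, 2 of the 10 passed (FOSB and ATF3), against 0.327% of all features. The 10 genes were chosen with earlier results of these data known, so these counts beside the shares are a description and no test of the set.

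**Figure D1:**
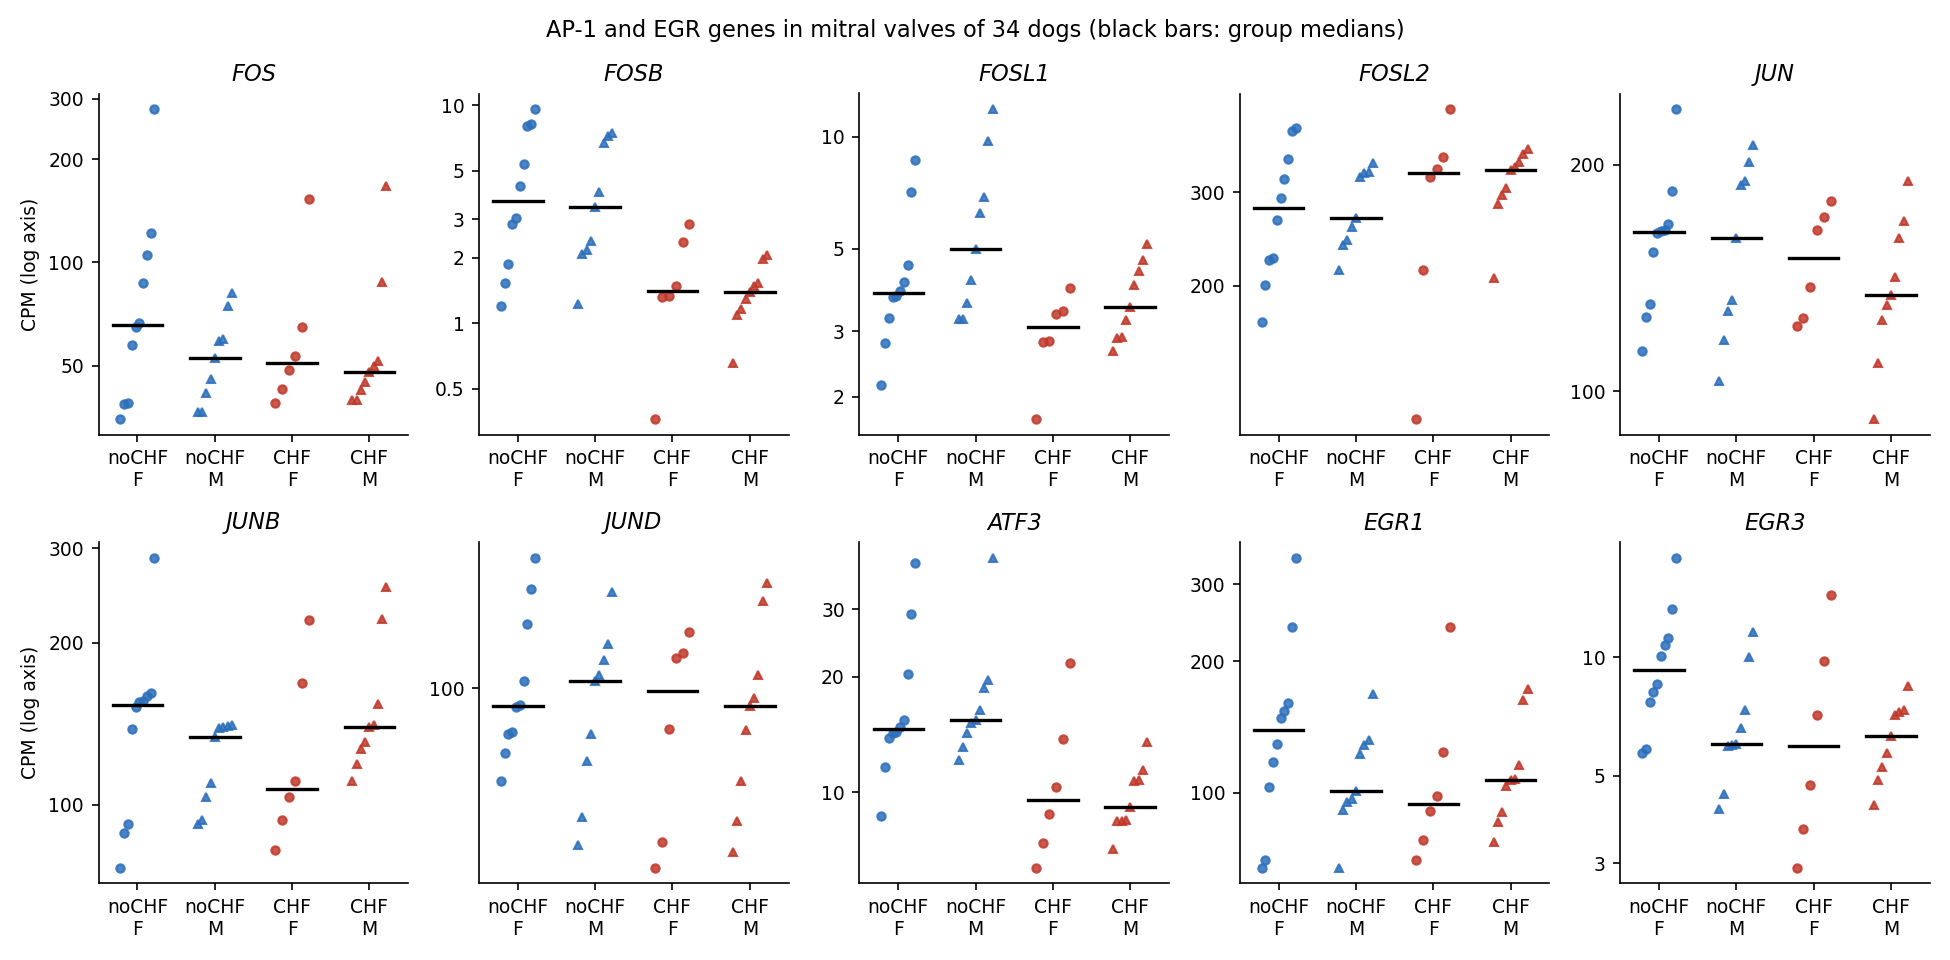
Level of each AP-1 and EGR gene in every dog, in CPM on a log axis, with females as circles, males as triangles, 10y-noCHF in blue and 10y-MMVD-CHF in red; black bars are group medians. FOSB separates the groups most, with a highest 10y-MMVD-CHF value of 2.86 CPM and 11 of 19 10y-noCHF dogs above it, whereas the FOS, JUN, JUNB and JUND values overlap over most of their range.

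FOSB encodes a FOS family protein that activates transcription as a JUN partner, and a shorter splice form is known for its long half-life. The counted feature lies on the minus strand at chr1:110800595-110804728 and consists of 4 exonic intervals of 1021 bases in total. In 10y-noCHF, FOSB ranged from 1.20 CPM (CAV1114) through a median of 3.42 to 9.60 CPM (CAV1732). In 10y-MMVD-CHF it ranged from 0.364 CPM (CAV1196) through a median of 1.39 to 2.86 CPM (CAV1259). Every one of the 15 10y-MMVD-CHF dogs was below the 10y-noCHF median, 4 of them were below the lowest 10y-noCHF dog, and the groups overlapped in the range between 1.20 and 2.86 CPM.

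The mean FOSB level of the 10y-MMVD-CHF dogs was 1.49 ± 0.626 CPM (SD, n = 15), against 4.35 ± 2.71 CPM (SD, n = 19) without CHF. FOSB fell by 1.52 on the log2 scale (SE 0.294, edgeR FDR = 0.0289), which placed it at rank 7 of all features by p-value. The values were alike in both sexes, with log2 fold changes of -1.50 in females and -1.54 in males (edgeR interaction p = 0.953). FOSB stayed past the threshold with each of the 34 dogs left out in turn, with an edgeR FDR between 0.0143 and 0.0715. It missed the threshold in limma's voom fit with sample weights (FDR = 0.117, log2 fold change -1.41).

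FOSB was a low-count gene, with 24 to 682 counts per dog, so the wider human-derived feature at chr1:110798314-110805296 was examined as well. It covers 6983 bases of the gene, introns included, and held 20852 counts over the 34 dogs against 6725 on the canine exons. Outside the canine exons, FOSB averaged 9.12 ± 5.82 CPM (SD, n = 19) without CHF and 2.88 ± 1.56 CPM (SD, n = 15) with it, and the log2 fold change was -1.66 (edgeR FDR = 0.0341). This fit was added after seeing the data and uses the same gene and libraries, so it is no independent support. In these counts the lower level in 10y-MMVD-CHF was not limited to the exons that the canine annotation lists. The share of the counts that fell on those exons had a median of 33.6% (range 23.6% to 42.9%) without CHF and of 32.5% (range 21.1% to 56.0%) with it.

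FOS, the founding member of the family and the usual JUN partner after a stimulus, showed no detected difference between the groups. The feature covers 3404 bases at chr8:48649032-48652435 on the plus strand. In 10y-noCHF, FOS ranged from 34.9 CPM (CAV1114) through a median of 59.1 to 280.4 CPM (CAV1732), and in 10y-MMVD-CHF from 38.8 CPM (CAV1519) through a median of 48.5 to 166.9 CPM (CAV648). The groups overlapped almost completely, and 11 of 15 10y-MMVD-CHF dogs were below the 10y-noCHF median. The log2 fold change was -0.06 (SE 0.265, edgeR FDR = 0.986), and single dogs set its sign, since it was 0.11 without CAV1732 and -0.25 without CAV648.

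The level of FOSB relative to FOS is given as a description with no test, since this pair and the pairs of FOSL1 with FOSL2 and ATF3 with JUN were chosen after their values were seen. The difference in log2 CPM between FOSB and FOS averaged -4.12 ± 0.717 (SD, n = 19) without CHF and -5.37 ± 0.755 (SD, n = 15) with it. Taken within sex, the groups differed by -1.28 on this scale. All 15 10y-MMVD-CHF dogs were below the 10y-noCHF median of this difference. With the log2 CPM of FOS as a covariate, also added after seeing the data, the log2 fold change of FOSB was -1.38. FOS itself showed no detected difference between the groups, so adjusting for it could change the FOSB value little, and no test is drawn from this fit. In the plot of FOSB against FOS, CAV1872 and CAV648 had FOSB below the 10y-noCHF median, as did all 15 10y-MMVD-CHF dogs. They had the highest FOS of 10y-MMVD-CHF (153.2 and 166.9 CPM). Their FOSB, 2.35 and 1.97 CPM, was above the 10y-MMVD-CHF median of 1.39 CPM.

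**Figure D2:**
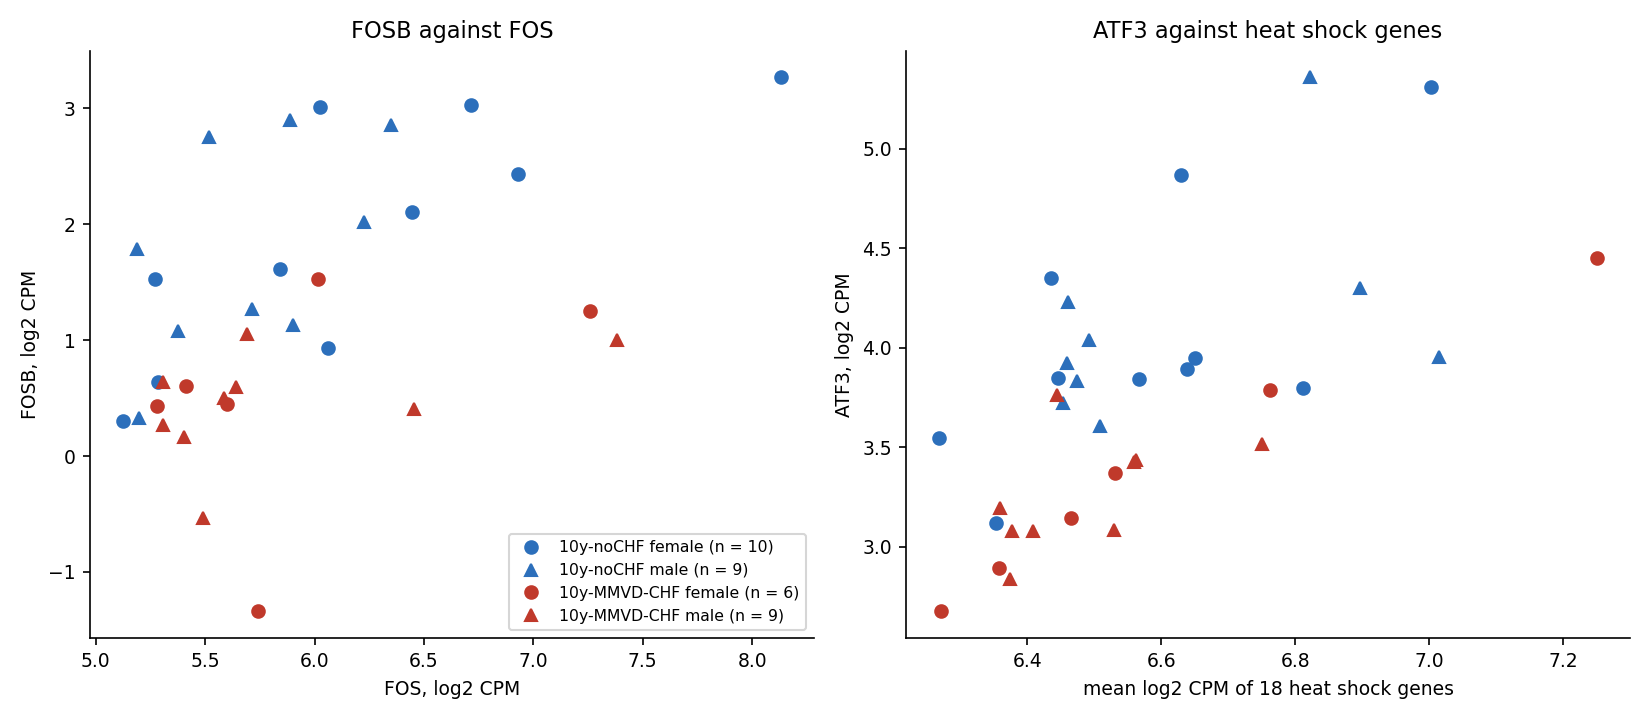
Left, FOSB against FOS, and right, ATF3 against the mean of 18 heat shock genes, each in log2 CPM with 1 point per dog (blue 10y-noCHF, red 10y-MMVD-CHF, circles females, triangles males). On the left every red point lies below the 10y-noCHF median of FOSB, also at high FOS, and on the right ATF3 is higher in dogs with higher heat shock genes in both groups (r = 0.70 after group means were removed).

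FOSL1 (FRA-1) and FOSL2 (FRA-2) encode FOS-related antigens that lack the strong activation domain of FOS and appear later after a stimulus. FOSL1, counted over 6210 bases at chr18:51870041-51876250, ranged from 2.15 CPM through a median of 4.07 to 11.9 CPM (CAV488) in 10y-noCHF. In 10y-MMVD-CHF it ranged from 1.74 CPM (CAV1047) through a median of 3.33 to 5.14 CPM (CAV1097). The 6 highest FOSL1 values of the cohort were in 10y-noCHF dogs, and 12 of 15 10y-MMVD-CHF dogs were below the 10y-noCHF median. The log2 fold change was -0.63 (SE 0.185, unadjusted p = 0.00183), which did not pass the threshold over all features (edgeR FDR = 0.387).

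FOSL2 was the most counted of the 10 genes, over a feature of 24906 bases at chr17:22372172-22397077 that includes introns. It ranged from 170.9 CPM through a median of 268.7 to 396.1 CPM in 10y-noCHF, and from 112.1 CPM (CAV1047) through a median of 330.7 to 430.2 CPM (CAV1872) in 10y-MMVD-CHF. Although 12 of 15 10y-MMVD-CHF dogs were above the 10y-noCHF median, the log2 fold change was 0.10 (SE 0.130, edgeR FDR = 0.947). The difference in log2 CPM between FOSL1 and FOSL2 averaged -5.88 ± 0.595 (SD, n = 19) without CHF and -6.45 ± 0.369 (SD, n = 15) with it, and 14 of 15 10y-MMVD-CHF dogs were below the 10y-noCHF median.

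The JUN family, the obligate side of the AP-1 dimer, showed no detected change. JUN (chr5:51326295-51329584, 3290 bases) averaged 160 ± 36.5 CPM (SD, n = 19) without CHF and 143 ± 27.7 CPM (SD, n = 15) with it. JUNB (chr20:49757410-49759233, 1824 bases), which can restrain JUN, averaged 135 ± 46.3 and 145 ± 50.7 CPM in the same order. JUND (chr20:45145888-45147854, 1967 bases), the most constitutive member, averaged 99.5 ± 22.6 and 93.7 ± 24.6 CPM. Their log2 fold changes were -0.15 (SE 0.107), 0.12 (SE 0.161) and -0.08 (SE 0.122), with edgeR FDR values of 0.867, 0.954 and 0.957.

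ATF3 encodes a stress-induced factor of the ATF group that pairs with JUN proteins and often represses its targets. It was the first feature past the 23 called over all features, at rank 24. The feature spans 53590 bases at chr7:10595128-10648717, most of it outside the canine RefSeq gene, which starts at position 10637865. How many of its counts fell outside that gene cannot be told from the deposited table, so the ATF3 values here are those of the whole span. ATF3 ranged from 8.67 CPM (CAV494) through a median of 15.1 to 40.95 CPM (CAV285) in 10y-noCHF. In 10y-MMVD-CHF it ranged from 6.36 CPM (CAV1196) through a median of 9.14 to 21.8 CPM (CAV1047). Of the 15 10y-MMVD-CHF dogs, 14 were below the 10y-noCHF median and 6 were below the lowest 10y-noCHF dog. CAV1047, the exception, had the fourth highest ATF3 of all dogs.

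The log2 fold change of ATF3 was -0.81 (SE 0.189, edgeR FDR = 0.124), with -0.68 in females and -0.92 in males. The call depended on the fit. ATF3 passed with DESeq2 (FDR = 0.0128) and with limma's voom (FDR = 0.0521), and with edgeR when CAV1047, CAV1049, CAV494, CAV576 or CAV743 was left out, with FDR values from 0.0341 to 0.0994. Without CAV285 the edgeR value was -0.68 (FDR = 0.275). The difference in log2 CPM between ATF3 and JUN averaged -3.20 ± 0.576 (SD, n = 19) without CHF and -3.82 ± 0.536 (SD, n = 15) with it, and 13 of 15 10y-MMVD-CHF dogs were below the 10y-noCHF median.

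EGR1 and EGR3 are zinc finger factors induced with FOS and held in check by the corepressors NAB1 and NAB2. EGR1 (chr11:26096131-26099994, 3864 bases) ranged from 67.5 through a median of 122.9 to 345.2 CPM in 10y-noCHF and from 70.1 through 103.5 to 240.0 CPM in 10y-MMVD-CHF. EGR3 (chr25:34757295-34763098, 5804 bases) ranged from 4.13 through 7.71 to 17.9 CPM in 10y-noCHF and from 2.92 through 6.32 to 14.4 CPM in 10y-MMVD-CHF. The groups overlapped over most of the range of both genes. The log2 fold changes were -0.16 (SE 0.193, edgeR FDR = 0.945) and -0.29 (SE 0.187, edgeR FDR = 0.848).

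**Figure D3:**
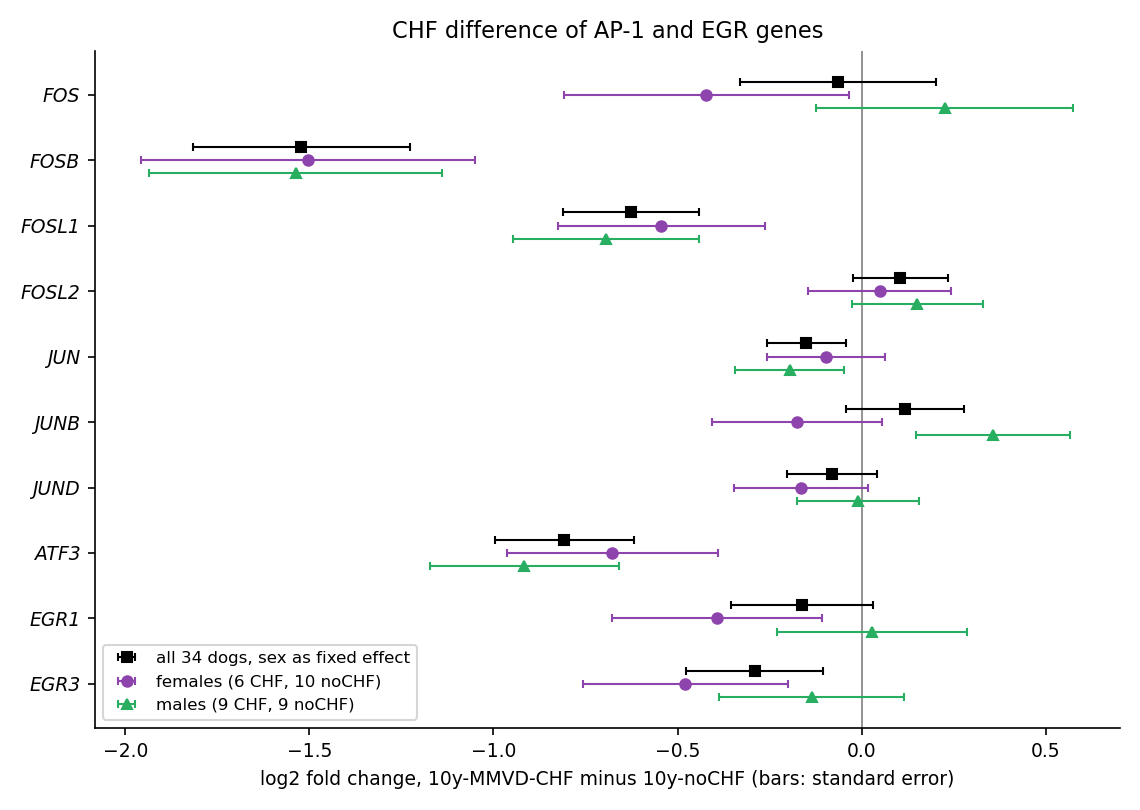
Log2 fold change of 10y-MMVD-CHF over 10y-noCHF with its standard error for each gene, in all 34 dogs (black squares), females (purple circles) and males (green triangles). FOSB, at -1.52, and ATF3, at -0.81, lie farthest from 0 in all 3 estimates, and FOS, JUNB and EGR1 have opposite signs in the sexes.

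No gene of the set passed the threshold for sex, where 0.143% of all features did. At an unadjusted p below 0.05 there was 1 of 10, FOSL1, with a log2 difference of 0.39 for males over females (p = 0.0424), against 2.98% of all features. In the test of whether the CHF difference itself differed between females and males, 0 of the 10 genes passed, as did 0% of all features, and none of the 10 had an unadjusted p below 0.05, where 6.02% of all features did. DESeq2 and limma's voom also gave 0 of the 10 for both comparisons. JUNB came nearest, with -0.18 in females and 0.36 in males (edgeR unadjusted interaction p = 0.0969), and FOS had -0.42 and 0.23 (p = 0.223). EGR1 also had opposite signs, with -0.39 and 0.03 (p = 0.278).

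Per kilobase of counted interval, the order of the median levels was JUNB (76.0 CPM per kb), JUND (48.3), JUN (47.6), EGR1 (27.7), FOS (15.3), FOSL2 (12.5), FOSB (2.02), EGR3 (1.23), FOSL1 (0.600) and ATF3 (0.255). On this scale the JUN family led the set, and the 3 genes with the lowest p-values for CHF (FOSB, ATF3 and FOSL1) were among the 4 lowest. Only FOSB was divided by exonic bases alone (1021), so its place among the human-derived spans does not rest on a like measure. All 9 neighbours in this order had an adjusted p of at most 0.0216 over the 34 dogs (two-sided permutation test with sign flips). The order was taken from the same values, so these p-values are no independent support for it. The smallest step was between JUND and JUN, 0.08 ± 0.198 on the log2 CPM per kb scale (SD, n = 34), in 26 of 34 dogs. Intervals that include introns, as in FOSL2 and ATF3, lower a level per kilobase. Without the division by length FOSL2 came first and EGR1 was above JUND, so the order depends on the counted lengths.

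The 10 genes varied more between dogs of a group than most features of like level. The biological coefficient of variation was 51.0% for FOS, against a median of 15.4% over the 1000 features nearest in level, of which 97.0% had a lower value. EGR1 (38.1%), JUNB (32.1%) and ATF3 (37.5%) exceeded 93.6%, 88.9% and 88.2% of their neighbours in level. FOSB had the highest value of the set, 55.6%, against a median of 34.5% for features near its low level. Dog CAV1732, a 10y-noCHF female, had the highest FOS, FOSB, JUNB, EGR1 and EGR3 of all dogs, and CAV1114, also a 10y-noCHF female, had the lowest FOS, JUNB and EGR1.

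Levels of the genes moved together across dogs, with JUN and JUND apart from the rest. With the means of the 4 groups of CHF status and sex removed, 17 of the 45 pairs were correlated at an adjusted p below 0.1 by permutation within groups, and all 17 were positive. FOS and EGR1 were the closest pair (r = 0.86, rho = 0.77, adjusted p = 0.00015 and 0.000225 by permutation), with r = 0.83 without the 2 dogs farthest from the median of FOS. FOS and JUNB had r = 0.77 and rho = 0.70 (adjusted p = 0.00015 and 0.00045), and r = 0.65 without those 2 dogs. EGR1 and EGR3 had r = 0.67 and rho = 0.71 (adjusted p = 0.00072 and 0.00045), and r = 0.52 without the 2 dogs farthest in EGR1.

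JUN and JUND formed a pair apart from the rest, with r = 0.85 and rho = 0.86 (adjusted p = 0.00015 and 0.000225 by permutation). Neither JUN nor JUND was correlated with any of the other 8 genes at an adjusted p below 0.1. Without the 2 dogs farthest from the median of FOS, the correlation of FOS and JUN changed from r = 0.09 to 0.46. FOSL2 went with EGR3 (r = 0.63, rho = 0.53, adjusted p = 0.00675 and 0.0259) and FOSL1 with FOSL2 (r = 0.46, rho = 0.42, adjusted p = 0.0207 and 0.0588), and r was 0.50 and 0.51 without the 2 farthest dogs.

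FOSB, in spite of its lower level relative to FOS in CHF, was correlated with FOS over the dogs (r = 0.59, rho = 0.61, adjusted p = 0.00521 and 0.00411 by permutation, and r = 0.55 without the 2 farthest dogs). Within 10y-noCHF r was 0.70, and within 10y-MMVD-CHF it was 0.40. FOS and ATF3 had r = 0.45 (adjusted p = 0.05) and rho = 0.45 (adjusted p = 0.0533), and r = 0.46 without the 2 farthest dogs. Within groups it was 0.74 in 10y-noCHF and -0.04 in 10y-MMVD-CHF. Whether these correlations differed between the groups was not tested.

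**Figure D4:**
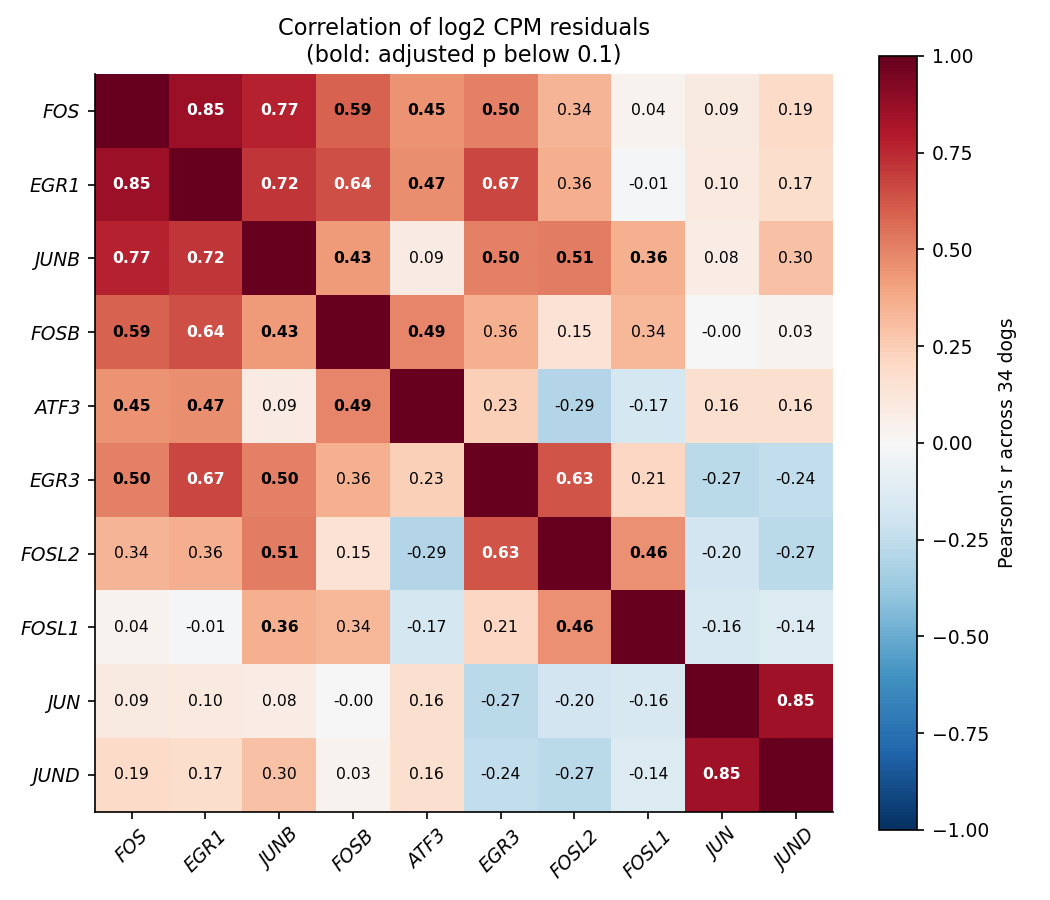
Pearson's r between the genes over 34 dogs, from log2 CPM after the means of the 4 groups were removed; the colour scale runs from -1 (blue) to 1 (red) and bold values have an adjusted p below 0.1. All pairs among FOS, EGR1, JUNB and FOSB are bold, and JUN and JUND (0.85) are bold only with each other. EGR3 is also bold with FOS, EGR1, JUNB and FOSL2, and ATF3 with FOS, FOSB and EGR1. FOSL1 and FOSL2 are bold with each other and with JUNB.

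Features most like each gene were sought among 16171 features with a mean of at least 1 CPM, by Spearman's rho of the same residuals over 34 dogs, as a description. NR4A1, an immediate-early nuclear receptor, came first for FOS (0.784), FOSB (0.668) and EGR1 (0.735). DUSP1, a phosphatase that switches off mitogen-activated protein kinases, was the next for FOS (0.678). FOSB was followed by SIK1 and its near-identical copy SIK1B (both 0.597, with the same counts). JUNB was most like IER2 (0.789), MYC (0.723) and NR4A2 (0.712), and EGR3 like EGR2 (0.713), WDR89 (0.693) and HBEGF (0.675). EARS2 was near both FOS (0.663) and EGR1 (0.666), and DCP1A near EGR1 (0.626).

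For the other genes, ATF3 was most like NR4A3 (0.776), PPP1R15A (0.767), a regulator of the integrated stress response, and PVR (0.705). JUN was most like CITED2 (0.821), the linker histone gene H1-10 (0.82) and IRF2BP1 (0.809), and JUND like MIF and the overlapping MIF-AS1 (both 0.843) and EVA1B (0.817). The counting was not stranded, so MIF and MIF-AS1 cannot be told apart. FOSL1 was most like KIAA1522 (0.73), the collagen-modifying enzyme gene PLOD3 (0.713) and PTPN9 (0.706). FOSL2 was most like SLITRK2 (0.825), ADCY2 (0.808) and RBBP8 (0.793).

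Heat shock genes, which respond to heat and protein damage, moved with ATF3. ATF3 was correlated with the mean log2 CPM of 18 heat shock genes at r = 0.70 (adjusted p = 0.0064 over 40 relations, by permutation) and rho = 0.68 (adjusted p = 0.0044), and at r = 0.54 without the 2 dogs farthest from the median of that mean. The mean of the heat shock genes was 6.60 ± 0.216 log2 CPM (SD, n = 19) without CHF and 6.53 ± 0.242 (SD, n = 15) with it, a difference of -0.06 (two-sided permutation test within sex, p = 0.446). Of the 18 genes, 0 passed the edgeR threshold and 2 had an unadjusted p below 0.05, against 0.118% and 6.31% of all features. Both were inducible HSP70 genes with lower values in 10y-MMVD-CHF. HSPA1A averaged 82.2 ± 49.3 CPM without CHF and 51.0 ± 32.2 CPM with it (log2 fold change -0.70, edgeR FDR = 0.672), and HSPA1B had -0.28 (edgeR FDR = 0.607). These copies are nearly identical, so their counts are uncertain. With the heat shock mean as a covariate, a fit added after seeing the data, the log2 fold change was -0.72 for ATF3 (edgeR FDR = 0.0227) and -1.50 for FOSB (FDR = 0.0237).

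ATF3 was also correlated with the mean of 19 cardiomyocyte markers (r = 0.50, adjusted p = 0.0772, and rho = 0.48, adjusted p = 0.127, by permutation), with r = 0.43 without the 2 farthest dogs. The summed level of these markers, a measure of heart muscle in the excised tissue, ranged from 153 to 29577 CPM without CHF and from 175 to 61487 CPM with it. With their mean as a covariate the edgeR FDR of ATF3 was 0.019 and its log2 fold change -0.85. None of the other relations of the 10 genes with these markers, red blood cell markers, heat shock genes or total counts passed an adjusted p of 0.1.

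The genes that surround AP-1 and EGR in the pathway were described from lists. For the counts in these and the later lists, the shares of all features were 0.118% past the edgeR threshold and 0.327% with DESeq2. At an unadjusted p below 0.05 the share was 6.31%. Among 45 other immediate-early genes, 0 passed the edgeR threshold and 0 passed with DESeq2, 2 were higher and 7 lower at an unadjusted p below 0.05, and the median log2 fold change was -0.05. KLF6, a zinc finger factor, averaged 174 ± 21.1 CPM (SD, n = 19) without CHF and 150 ± 23.7 CPM (SD, n = 15) with it (log2 fold change -0.23, edgeR FDR = 0.369). It passed without CAV1872 (FDR = 0.0148, log2 fold change -0.29). NFKBIA, the inhibitor of NF-kappa-B, had -0.28 (edgeR FDR = 0.480). For NR4A1, the gene most like FOSB, it was -0.42 (edgeR FDR = 0.779).

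Among 29 upstream kinases and cofactors of serum response factor, 0 passed with edgeR or DESeq2, 1 was higher at an unadjusted p below 0.05, and the median was 0.05. That gene was MRTFB, an actin-regulated coactivator, at 0.29 on the log2 scale (SE 0.0853, edgeR FDR = 0.395), followed by the p38 kinase MAPK14 with 0.15 (FDR = 0.789). Of 22 other leucine zipper partners, 0 passed with either tool and 0 had an unadjusted p below 0.05. The lowest p-values there were those of DDIT3 (log2 fold change -0.21, edgeR FDR = 0.830) and ATF6 (0.11, FDR = 0.861). The EGR corepressors NAB1 and NAB2 had log2 fold changes of -0.01 and 0.04 (edgeR FDR = 0.990 and 0.965), whose signs turned under several fits.

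Targets of AP-1 and EGR were described from 30 textbook target genes, a list that is given here only in part, so that its counts say nothing of targets outside the 30. Among these, 0 passed the edgeR threshold and 1 passed with DESeq2, 1 was higher and 5 were lower at an unadjusted p below 0.05, and the median log2 fold change was -0.12. EREG, the epidermal growth factor receptor ligand epiregulin, averaged 3.76 ± 3.02 CPM (SD, n = 19) without CHF and 1.10 ± 1.20 CPM (SD, n = 15) with it. Its log2 fold change was -1.79 (SE 0.512, edgeR FDR = 0.368), and it passed with DESeq2 (FDR = 0.0409) and with edgeR when CAV1872 was left out (FDR = 0.0873, log2 fold change -2.35). HBEGF, a ligand of the same receptor and one of the features most like EGR3, averaged 57.2 ± 23.5 CPM (SD, n = 19) without CHF and 36.1 ± 16.5 CPM (SD, n = 15) with it, and had a log2 fold change of -0.66 (SE 0.212, edgeR FDR = 0.446).

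**Figure D5:**
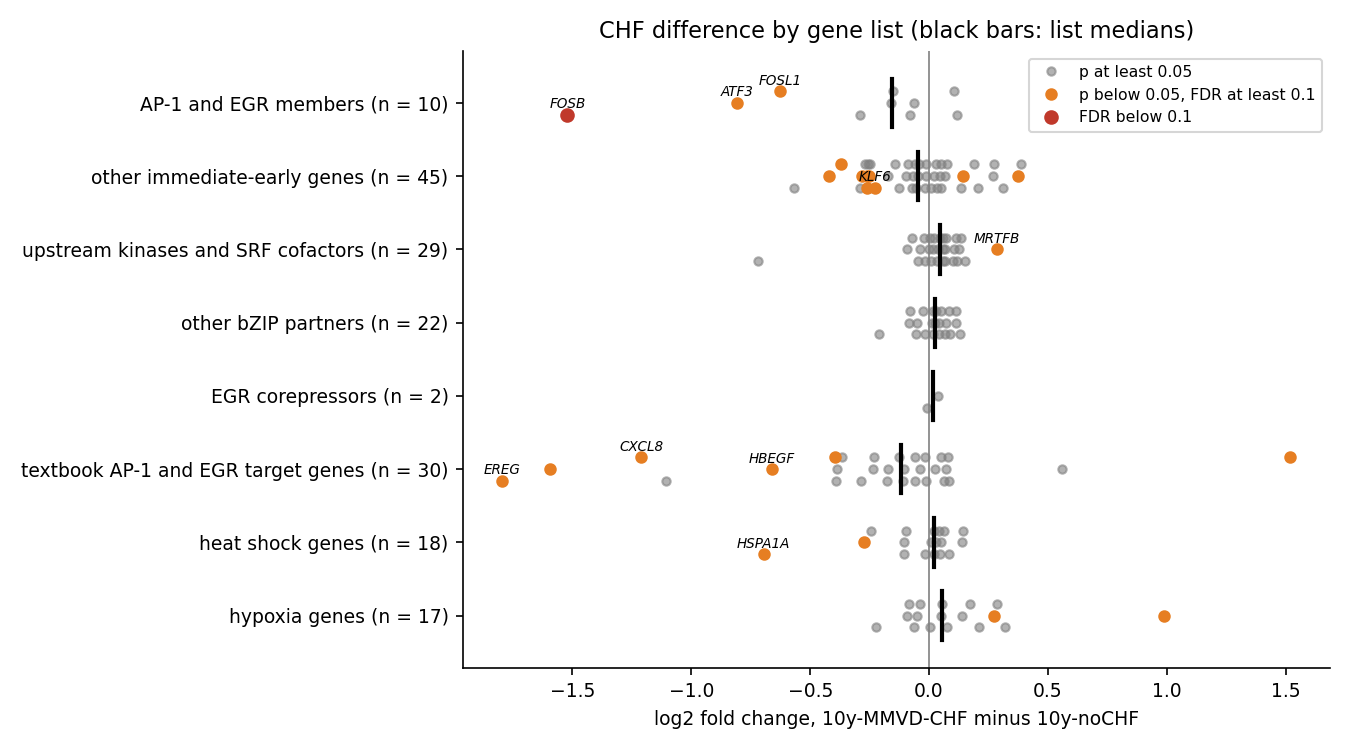
Log2 fold change of 10y-MMVD-CHF over 10y-noCHF for each gene (1 point) of the AP-1 and EGR set and of 7 related lists, with red points past an edgeR FDR of 0.1, orange points at an unadjusted p below 0.05 and black bars at the list medians. FOSB is the 1 point past the threshold among the genes plotted, and most of the kinases and leucine zipper partners lie close to 0.

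Of 17 hypoxia genes, 0 passed with either tool and 2 were higher at an unadjusted p below 0.05, with a median of 0.05. The log2 fold change of CA9 was 0.99 (edgeR FDR = 0.662), or 0.20 without CAV1196, and BNIP3 had 0.27 (FDR = 0.691). The marker lists of valve interstitial cells (13 genes), smooth muscle (8), cardiomyocytes (19), red blood cells (9), neutrophils (9), macrophages (10), T cells (6) and mast cells (8) held no gene past the edgeR threshold. The valve interstitial markers, among them VIM and COL1A1, summed to 19571 to 59053 CPM without CHF and 25305 to 68526 CPM with it. A high sum of these markers does not by itself identify the tissue as valve. Of 12 endothelial markers 1 passed, VWF, which was higher in 10y-MMVD-CHF (log2 fold change 1.40, edgeR FDR = 0.0678). The median log2 fold change over the 12 was 0.07, and 4 of them were below 0. Their summed level had a median of 1001 CPM without CHF and 1056 CPM with it. The mean log2 CPM of the 8 mast cell markers differed by -0.58 between the groups (two-sided permutation test within sex, p = 0.116). At an unadjusted p below 0.05, CPA3 and the identical pair TPSAB1 and TPSB2 had lower values in 10y-MMVD-CHF, with none past the edgeR threshold, whereas MS4A2 had a log2 fold change of 0.59 (edgeR unadjusted p = 0.225) and GATA2 of 0.07. The summed level of the mast cell markers, 32.3 to 77.7 CPM without CHF and 37.5 to 62.1 CPM with it, was mostly that of GATA2, which averaged 43.1 CPM and 44.6 CPM and is also expressed in other cells. With the mean of the mast cell markers as a covariate, added after seeing the data, the log2 fold change was -1.51 for FOSB (edgeR FDR = 0.0353) and -0.62 for ATF3 (FDR = 0.181).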

How the data were processed

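PolyA RNA of 34 mitral valves was sequenced in pairs. The authors aligned the reads to canFam4 (UU_Cfam_GSD_1.0) using STAR. The values they deposited are raw counts, for which the file header names featureCounts 2.0.3. The STAR version is not given in the sources used here. The features are 2165 canine RefSeq genes and 21603 spans of human XenoRefSeq genes, which include introns. The recorded command counts both reads of a pair, ignores strand and gives a read to every feature it overlaps, and no feature of another gene overlaps the 10 genes. Counts are therefore not independent molecules. The table also held 1 count column that matched no sample, which was not used.

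From the counts, features with a sum of at least 100 were kept (19568). CPM used TMM library sizes, and log2 CPM a prior count of 2. edgeR 4.0.16 in R 4.3.3 fitted CHF and sex over all 34 dogs. DESeq2 1.42.0, limma 3.58.1, other normalizations, filters and covariates, and each dog left out in turn were alternatives. Correlations and level orders used permutation tests with 100000 resamples (scipy 1.17.1). The fits and the correlation test were tested on simulated data. Each dog is 1 sample, named and grouped by its label. The 10 genes and all lists were chosen with earlier results of these data known. Named were the 10 genes, in each related list the genes past the FDR threshold and otherwise those with the 2 smallest p-values, and the 3 features most like each gene. NR4A1, VWF, VIM, COL1A1, CPA3, TPSAB1, TPSB2, MS4A2 and GATA2 were named beside these after their values were seen. Some genes of the target list are not reported here and were left out of its counts after the fit. MAFK, CD3G and TRAC were not analysed here.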

Additional observations from a re-analysis of the deposited data

Results flagged for a closer look

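In each of the 4 groups, the dog farthest from the others was examined for each of the 10 genes. Of the 40 groups of values, 3 held a dog whose gap to the next exceeded Dixon's limit, where chance gives about 2. CAV1872 had the highest FOS of the 6 10y-MMVD-CHF females, 7.26 log2 CPM (153.2 CPM), with the next dog at 6.01. CAV373 had the lowest FOSL2 of the 9 10y-MMVD-CHF males, 7.69 log2 CPM (206.7 CPM), with the next at 8.15. CAV285 had the highest ATF3 of the 9 10y-noCHF males, 5.36 log2 CPM (40.95 CPM), with the next at 4.30. The ATF3 result without CAV285 was -0.68 on the log2 scale (edgeR FDR = 0.275).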

How the results depend on the processing

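The number of AP-1 and EGR genes called for CHF was 1 with edgeR and 2 with DESeq2, with upper-quartile normalization, with the cardiomyocyte marker mean as a covariate, without CAV614 and CAV1047 together, and with the heat shock mean as a covariate, the last added after seeing the data. In each of these the second gene was ATF3. Leaving out single dogs gave 1 to 2. limma's voom also gave 1, but it was ATF3 and not FOSB. Over 18 alternatives with all or most dogs FOSB had log2 fold changes from -1.66 to -1.38 and passed in 17, and over 16 ATF3 had -0.91 to -0.62 and passed in 6. Both sets include fits added after seeing the data. These are the FOS, mast cell and heat shock covariates, the fit without CAV1732 and CAV648 together, and, for FOSB, the counts outside the canine exons. The FOSB extremes, -1.66 and -1.38, came from the counts outside the exons and from the FOS covariate. The FOS covariate fit is among the 17, although no test is drawn from it. FOS reversed to 0.016 without CAV614 and CAV1047 together and to 0.11 with the mast cell marker mean as a covariate, and with dogs left out in turn it ran from -0.25 to 0.11. NAB2 reversed to -0.0028 with the mast cell covariate and to -0.00075 with the heat shock covariate (leaving out dogs, -0.00014 to 0.083). NAB1 reversed to 0.0053 with voom and to 0.015 without CAV614 and CAV1047 together (leaving out dogs, -0.027 to 0.013). Of the 30 targets, 1 was called with DESeq2, against 0, and 0 to 1 with dogs left out. Over all features DESeq2 called 64 and edgeR 23. The totals of the other fits are not given here, so whether ATF3 passed in them along with more features overall cannot be read from these counts. Of the relations with lists and depth, 2 passed with Pearson's r and 1 with Spearman's rho. For these changes the cause was not tested. No paired analysis was possible because the labels give the groups no shared replicate numbers. FOSB and FOSL1 had the fewest counts, 24 and 68 in their lowest dogs, and whether depth limited their tests was not tested.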
